A study of Rattus norvegicus with 9 samples.

Results

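The axon guidance ligands and receptors of the dorsal root ganglion (DRG) were taken from the gene table by symbol: every semaphorin, plexin of classes A to D, netrin, Slit, Robo, Unc5, EphA, EphB, ephrin-A and ephrin-B gene, with Nrp1, Nrp2 and Dcc. The choice used names and no measured value, but it was made with earlier results of these data known. It left out the unrelated Ephx and Slitrk genes. It gave 71 of the 20194 genes in the table, of which 37 encode ligands and 34 receptors. RNA was sequenced from the DRG of male Sprague-Dawley rats in 3 groups of 3 libraries: sham surgery, spared nerve injury (SNI), and SNI with G15 (SNI + G15). SNI cuts the tibial and common peroneal branches of the sciatic nerve and leaves the sural branch whole, and G15 blocks the G protein-coupled oestrogen receptor. G15 was given through an intrathecal catheter placed on day 5 of SNI, and the labels put drugs in 2% DMSO with injection for 24 h and mark the sham and SNI libraries as controls for G15. The labels do not say whether the sham and SNI rats received the vehicle. All 3 SNI + G15 titles carry the name SNI1, whereas the SNI titles run from SNI1 to SNI3. Whether the 3 SNI + G15 libraries share a source cannot be told from the titles. The study's own accounts of how many rats stand behind the libraries also differ, so p-values measure the spread between these libraries.

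Axon guidance genes are named for their work in the embryo, where ligands on cells or in the matrix attract or repel a growth cone through receptors on its membrane. Secreted class 3 semaphorins bind neuropilins, which signal with plexins of class A, whereas membrane-bound semaphorins bind plexins directly. Netrins attract through DCC and repel through UNC5 receptors, Slits act on Robo receptors, and ephrins act on Eph receptor tyrosine kinases and can also signal back into the cell that carries them. In adult ganglia these families remain expressed in neurons, glia and vessels, and several are known for roles in axon regrowth after injury.

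Levels are given as FPKM, the deposited value that divides reads by gene length and library size and so can be set side by side between genes. Differences are log2 fold changes with their standard error (SE) from edgeR's quasi-likelihood test on the deposited estimated counts, and a gene was called when its p-value, adjusted over all genes tested by the Benjamini-Hochberg method, was below 0.05. Genes had to reach an FPKM of 1 in any of the 9 libraries to be tested, which left 14305 genes, among them 60 of the 71 guidance genes. Library totals lay between 18484557 and 18756736 estimated reads. All 12 sensory neuron markers were measured, with a summed level of 13860 to 14250 FPKM in sham, and the 8 injury-response genes, Atf3 among them, were all higher in SNI than in sham, with sums of 228 to 239 FPKM in sham and 1764 to 1821 FPKM in SNI.

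In the uninjured ganglion and after injury the ligands made up most of the guidance RNA. Summed FPKM of the 37 ligands was 479 ± 17.5 (SD, n = 3) in sham, against 180 ± 5.15 (SD, n = 3) for the 34 receptors. Sema3b, a secreted semaphorin, had the highest level of all 71 genes, with 108, 113 and 117 FPKM in the sham libraries, 97.1, 94.8 and 96.1 FPKM in SNI, and 99.0, 104 and 96.5 FPKM in SNI + G15. Sema7a, a semaphorin tethered to the membrane by a lipid anchor, was next in sham at 69.7 ± 0.975 FPKM (SD, n = 3). These 2 genes did not overlap with each other or with any other guidance gene in the sham libraries.

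Below them the order was less distinct. In sham, the netrin-G gene Ntng2 (34.4 ± 4.80 FPKM, SD, n = 3), the plexin Plxnd1 (25.4 ± 1.33), the receptor Robo2 (22.8 ± 0.717) and the ligand Slit1 (22.1 ± 1.59) followed. The libraries of Robo2 and Slit1 overlapped, so their order was not resolved. The highest member of each remaining family was Efna1 for ephrin-A (18.7 ± 0.225 FPKM), Nrp2 for the neuropilins (15.0 ± 0.548), Ephb6 for EphB (12.2 ± 0.680), Efnb1 for ephrin-B (11.4 ± 0.191), and Unc5b and Epha5 at lower levels, below 4 FPKM in every sham library. Over all 9 libraries 21 of the 71 genes had a mean above 10 FPKM.

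The 11 guidance genes below the level filter were Dcc, Epha1, Epha3, Epha4, Epha8, Ntn5, Robo3, Robo4, Sema3a, Unc5c and Unc5d. Their means over the 9 libraries lay between 0.0778 FPKM for Sema3a and 0.650 FPKM for Epha4. Dcc, the attractive netrin receptor, had 0.22, 0.21 and 0.23 FPKM in sham, 0.30, 0.32 and 0.42 FPKM in SNI, and 0.24, 0.20 and 0.20 FPKM in SNI + G15. The SNI libraries were above those of both other groups. Fitted without the level filter, Dcc gave a log2 fold change of 0.62 (SE 0.175, adjusted p = 0.0183) in SNI against sham and -0.68 (SE 0.182, adjusted p = 0.0469) in SNI + G15 against SNI, on 34 to 72 reads per library. Epha3, a receptor for ephrin-A ligands, had -0.78 (SE 0.237, adjusted p = 0.0252) in SNI against sham in that fit. In SNI + G15 against sham, Unc5d (-1.10, SE 0.191, adjusted p = 0.00146) and Unc5c (-0.49, SE 0.132, adjusted p = 0.0161), both netrin receptors, and the ephrin receptor Epha4 (-0.65, SE 0.168, adjusted p = 0.0141) were lower in the same fit. No other value of the 11 genes passed there.

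The first comparison asked how guidance genes differed between injured and sham ganglia. In SNI, 14 of the 60 genes were higher than in sham and 28 were lower, and 18 were not called. Sema6a rose most, about 5.89-fold, and Efnb3 fell most, to about 0.325 of its sham level. Lower calls were 46.7% of the guidance genes, where 22.4% of all 14305 genes were lower, and higher calls were 23.3% of the guidance genes, where 23.3% of all genes were higher. The median log2 fold change was -0.0986 over the 60 genes and 0.00102 over all genes tested. Among ligands 7 were higher and 19 lower of 35, and among receptors 7 were higher and 9 lower of 25. In bulk tissue fewer cells of a type and less RNA per cell cannot be told apart. In the same libraries 6 of 10 Schwann cell markers were lower and none was higher in SNI (summed FPKM 5512 to 5622 in sham and 3155 to 3215 in SNI), 9 of 10 macrophage markers were higher (179 to 197 and 392 to 404), and of 12 sensory neuron markers 7 were lower and 2 higher (13860 to 14250 and 12200 to 12550). All 6 erythroid markers (97.3 to 101 and 326 to 334) and 4 of 6 T cell markers (14.4 to 16.1 and 31.6 to 31.9) were also higher. Fibroblast markers were lower in 6 and higher in 2 of 10 (506 to 517 and 474 to 476). Pericyte and smooth muscle markers were higher in 3 of 7 and lower in none (44.4 to 46.0 and 54.4 to 59.8). Satellite glia markers were higher in 3 and lower in 1 of 7, and endothelial markers higher in 1 and lower in 1 of 10. The part of these cell types in the guidance results was not tested. Sham library 2 had the lowest FPKM of its group for 38 of the 60 genes (63.3%), as against 34.2% over the whole test, and without it the median was -0.149 and 38 of the 42 calls were kept.

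**Figure D1:**
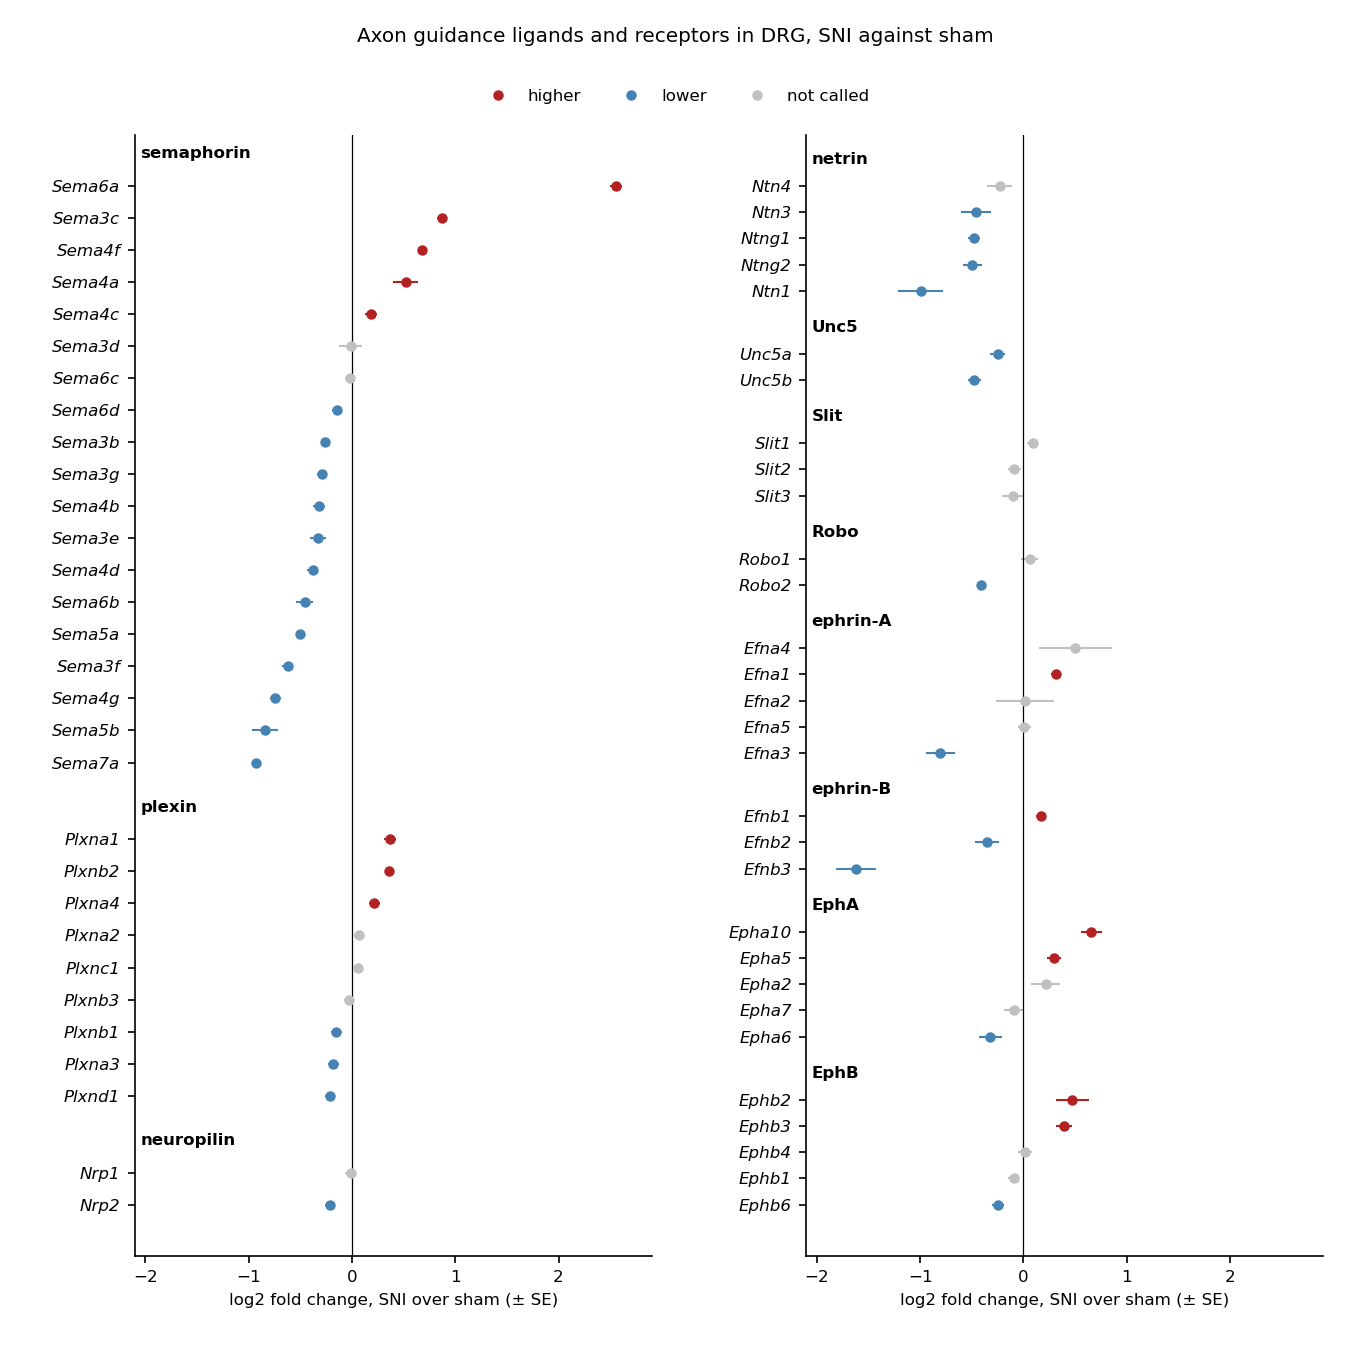
Log2 fold change of SNI over sham (x axis, bars are the standard error, 3 libraries in each group) for the 60 guidance genes tested, by family. Sema6a at 2.56 stands to the right of all others, Efnb3 at -1.62 to the left, and each of the 5 netrins and both Unc5 receptors lies below 0.

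Of the 14 higher and 28 lower genes, 5 were higher and 8 lower by at least 0.5 on the log2 scale, where 9.09% and 5.01% of all tested genes passed the same rule. They were 11 ligands of the semaphorin and ephrin families, the netrin Ntn1, and the receptor Epha10. The plot of FPKM by library for these 13 genes shows that sham and SNI did not overlap for any of them. The 13 genes were picked from these same libraries, so the lack of overlap is a description and adds no support. Some uncalled genes, Plxnc1 and Slit1 among them, did not overlap between sham and SNI either. The share of all genes without overlap was not counted.

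**Figure D2:**
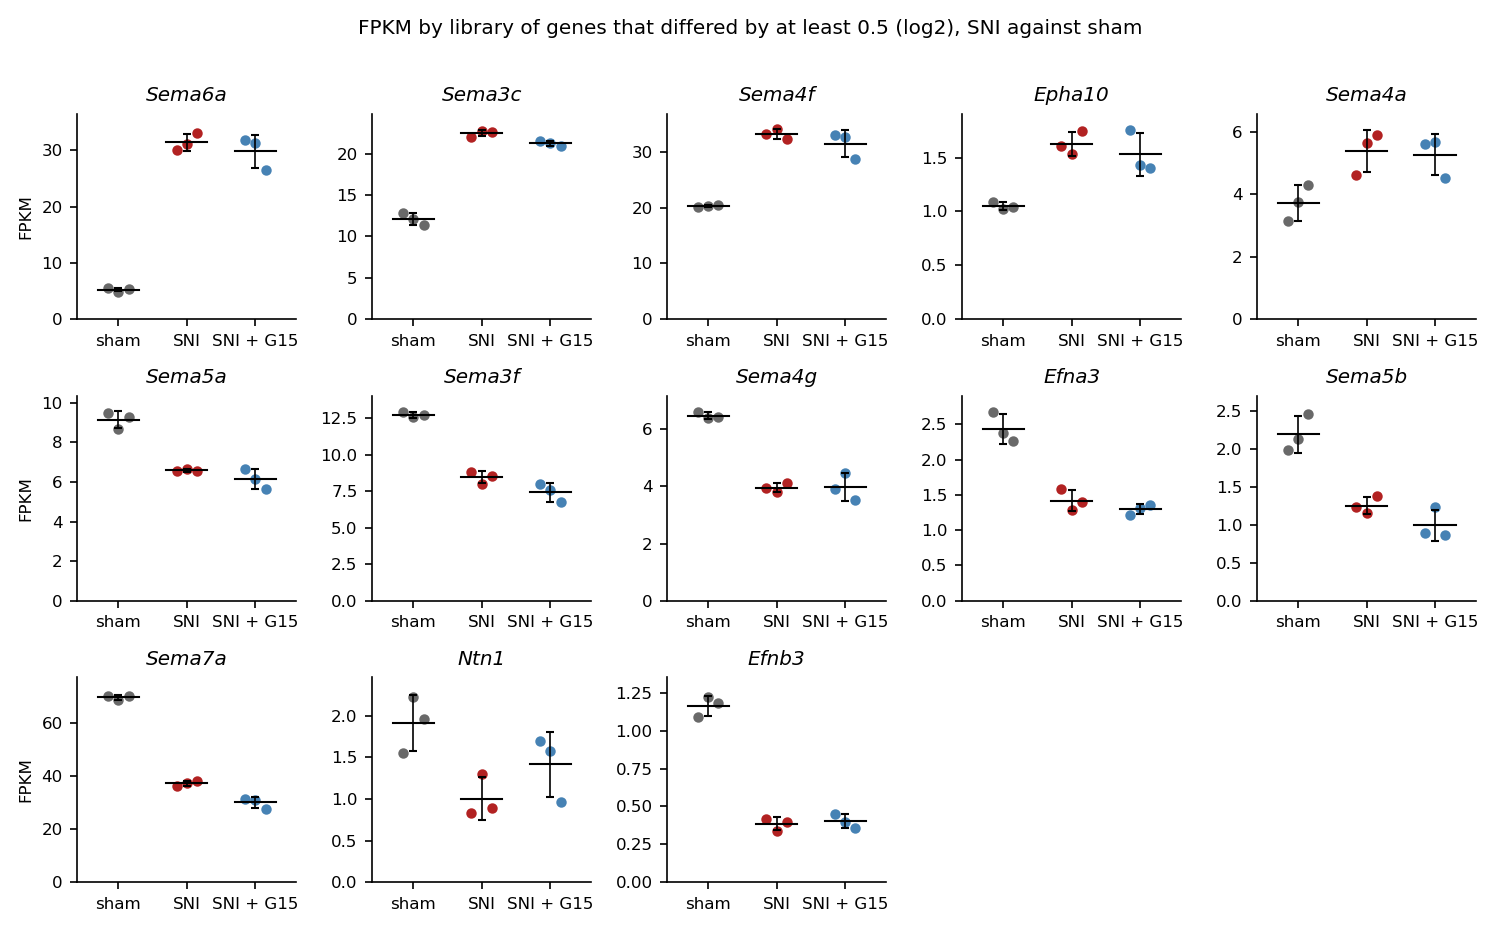
FPKM (y axis, from 0) in each library of the 13 guidance genes that differed by at least 0.5 on the log2 scale between SNI and sham; dots are libraries, the line is the mean and the bar its SD (n = 3). Sema6a lies between 4.88 and 5.45 in sham and between 26.5 and 33.0 in both injured groups, and Sema7a falls from about 70 to under 40.

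The semaphorins were the family with the widest spread, with 5 higher and 12 lower of 19 tested. Sema6a, a transmembrane ligand of class A plexins, had 5.45, 4.88 and 5.35 FPKM in sham, 30.1, 31.1 and 33.0 FPKM in SNI, and 31.9, 31.3 and 26.5 FPKM in SNI + G15. Each injured library was far above each sham library, and the 2 injured groups overlapped. The log2 fold change of SNI over sham was 2.56 (SE 0.0548, adjusted p = 1.5e-10), which placed Sema6a at rank 15 of the 14305 genes by p-value and at rank 137 by size of change. Class 6 semaphorins together had 36.3 ± 1.99 FPKM (SD, n = 3) in sham and 60.2 ± 1.90 FPKM in SNI, and of the other 3 genes of the class Sema6b (-0.46, SE 0.0847) and Sema6d (-0.14, SE 0.0484) were lower and Sema6c was not called (-0.02, SE 0.0518, adjusted p = 0.806).

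Deposited FPKM values are also split by transcript, and 4 transcripts were listed for Sema6a. XM_006254703.3 had 0.55, 0.04 and 2.72 FPKM in sham, 15.1, 15.6 and 18.3 FPKM in SNI, and 15.2, 17.8 and 10.9 FPKM in SNI + G15. Its mean share of the gene was 20.6% in sham, 51.8% in SNI and 48.5% in SNI + G15. XM_006254704.3 had 2.94, 2.01 and 2.58 FPKM in sham and 13.2, 12.9 and 11.8 FPKM in SNI. XM_003751782.4 had 1.92, 2.83 and 0 FPKM in sham and 1.85, 2.65 and 2.93 FPKM in SNI. The 2 injured groups thus overlapped for every transcript, while the sham shares varied widely between libraries. With 3 libraries against 3 an exact test of a share cannot reach 0.05, so the shares are a description, and the split of reads between transcripts is an estimate.

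**Figure D3:**
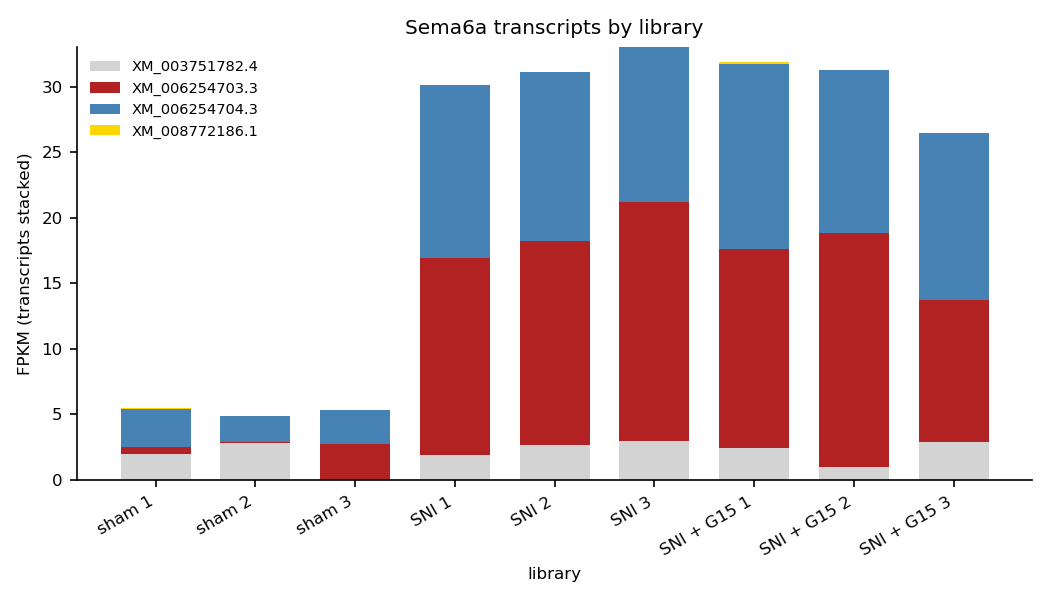
FPKM of the 4 Sema6a transcripts, stacked, in each of the 9 libraries. The red bar, XM_006254703.3, is between 0.04 and 2.72 FPKM in sham and between 10.9 and 18.3 FPKM in the injured groups, and the blue bar, XM_006254704.3, is between 2.01 and 2.94 FPKM in sham and above 11 FPKM after injury.

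The other semaphorins that rose by at least 0.5 belonged to classes 3 and 4. Sema3c, a secreted class 3 semaphorin, had 12.8, 12.0 and 11.3 FPKM in sham, 22.1, 22.7 and 22.7 FPKM in SNI, and 21.6, 21.2 and 20.9 FPKM in SNI + G15. Every SNI library lay above every sham library, and the log2 fold change was 0.88 (SE 0.0478, adjusted p = 1.93e-07). Sema4f, a transmembrane semaphorin found in neurons and glia, had 20.1, 20.3 and 20.4 FPKM in sham, 33.1, 34.0 and 32.4 FPKM in SNI, and 33.1, 32.6 and 28.7 FPKM in SNI + G15. The sham libraries were closely alike and all below the SNI libraries, with a log2 fold change of 0.68 (SE 0.0394, adjusted p = 2.82e-07). Its estimated counts were not whole in any library, as happens when reads are split between features; the same held for Epha7, Ephb3, Nrp2, Plxna3, Plxna4, Sema4c, Sema5a, Sema6b, Sema6d and Unc5b. Sema4a, a semaphorin also known from immune cells, had 3.14, 3.75 and 4.30 FPKM in sham, 4.63, 5.64 and 5.91 FPKM in SNI, and 5.63, 5.68 and 4.54 FPKM in SNI + G15. The highest sham library came close to the lowest SNI library, and the log2 fold change was 0.52 (SE 0.122, adjusted p = 0.00541).

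Sema7a, a membrane-anchored semaphorin, had 70.2, 68.6 and 70.3 FPKM in sham, 36.2, 37.3 and 38.2 FPKM in SNI, and 31.6, 31.1 and 27.7 FPKM in SNI + G15. The 3 groups formed 3 separate ranges, and SNI over sham was -0.93 on the log2 scale (SE 0.0377, adjusted p = 1.81e-08). Plxnc1, the plexin that binds Sema7a, had 10.3, 10.5 and 10.2 FPKM in sham and 10.6, 11.2 and 11.1 FPKM in SNI, with a log2 fold change of 0.05 that was not called (SE 0.0408, adjusted p = 0.306).

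Both class 5 semaphorins, transmembrane proteins with thrombospondin repeats, fell. Sema5b had 1.98, 2.12 and 2.46 FPKM in sham, 1.23, 1.15 and 1.37 FPKM in SNI, and 0.89, 1.23 and 0.86 FPKM in SNI + G15. The log2 fold change was -0.84 (SE 0.128, adjusted p = 0.000351) on 74 to 159 reads per library of these groups, and no injured library reached the lowest sham library. Sema5a had 9.50, 8.65 and 9.26 FPKM in sham, 6.55, 6.66 and 6.55 FPKM in SNI, and 6.66, 6.16 and 5.62 FPKM in SNI + G15. SNI over sham was -0.50 (SE 0.0451, adjusted p = 7.66e-06), and all injured libraries were below all sham libraries.

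Sema4g, another transmembrane class 4 gene, had 6.62, 6.39 and 6.44 FPKM in sham, 3.94, 3.82 and 4.12 FPKM in SNI, and 3.91, 4.49 and 3.52 FPKM in SNI + G15. The injured groups overlapped each other and not the sham group, and SNI over sham was -0.74 (SE 0.0546, adjusted p = 1.78e-06). Sema3f, a secreted ligand of Nrp2, had 13.0, 12.6 and 12.7 FPKM in sham, 8.81, 8.03 and 8.57 FPKM in SNI, and 7.98, 7.56 and 6.74 FPKM in SNI + G15. All SNI libraries were below all sham libraries (log2 fold change -0.62, SE 0.052, adjusted p = 4.47e-06). The remaining lower semaphorins were Sema3b, Sema3e, Sema3g, Sema4b, Sema4d, Sema6b and Sema6d, between -0.14 and -0.46 on the log2 scale, and the remaining higher one was Sema4c at 0.19. Sema3b, the gene of the highest level, fell by 0.26 (SE 0.0393, adjusted p = 0.00032), and its 3 SNI libraries lay below its 3 sham libraries.

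**Figure D4:**
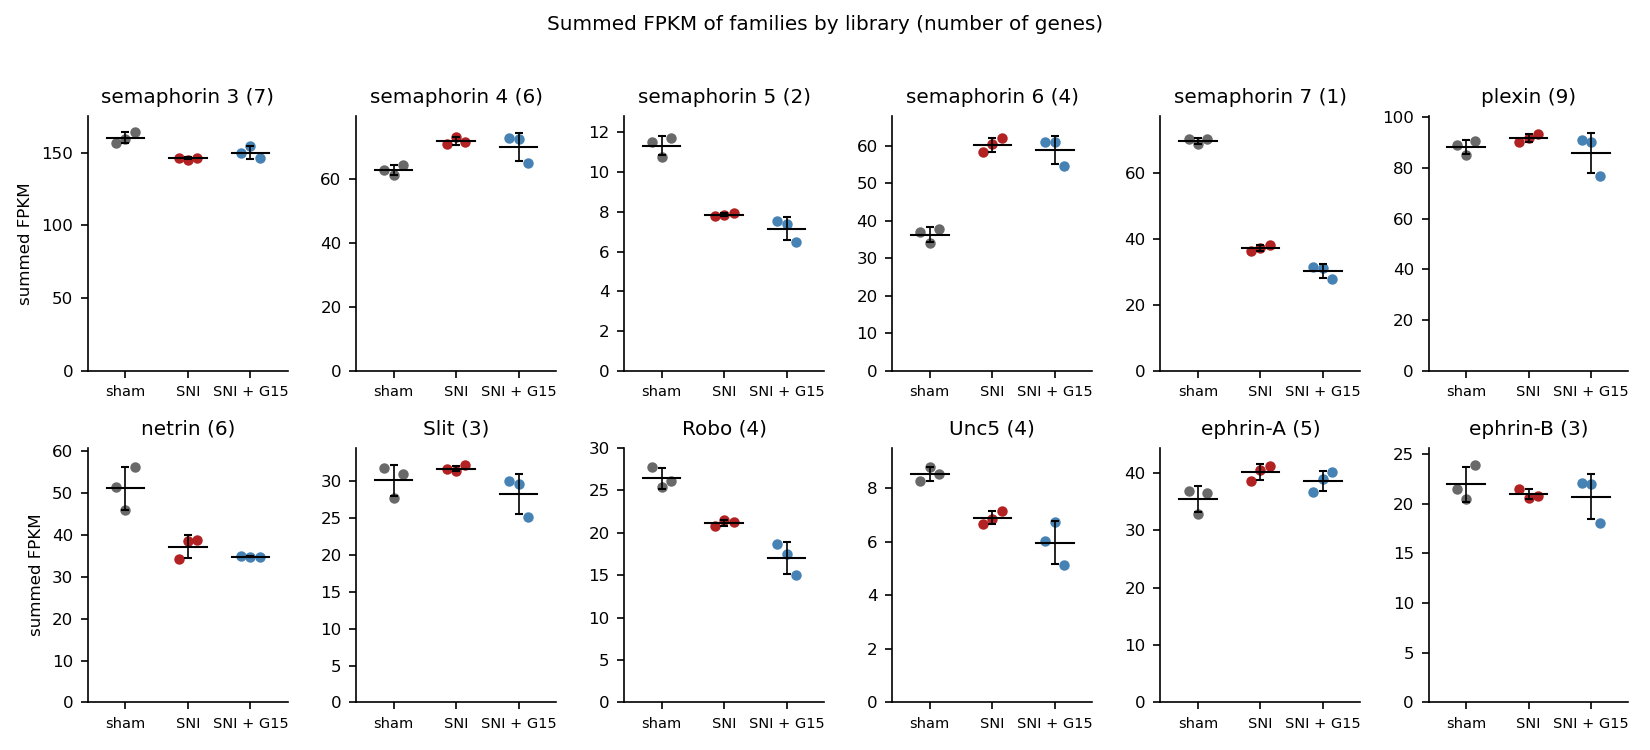
Summed FPKM (y axis, from 0) of 12 families or semaphorin classes in each library, with the mean and SD (n = 3) and the number of genes summed in brackets. Class 6 semaphorins have a mean of 36.3 in sham and 60.2 in SNI. Class 3, class 5 and class 7 semaphorins, netrins, Robo and Unc5 receptors have lower values in every SNI library than in every sham library. Class 4 and class 6 semaphorins and ephrin-A have higher values in every SNI library than in every sham library. Plexins, Slits and ephrin-B overlap.

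The receptors for semaphorins moved less than the ligands. Of the 9 plexins 3 rose, namely Plxna1 (log2 fold change 0.37, SE 0.057), Plxnb2 (0.36, SE 0.0425) and Plxna4 (0.22, SE 0.0519), and 3 fell, namely Plxnb1 (-0.15, SE 0.0539), Plxna3 (-0.18, SE 0.0493) and Plxnd1 (-0.22, SE 0.0464). Plxnd1, the receptor of Sema3e, had 25.5, 24.0 and 26.7 FPKM in sham, 21.7, 22.3 and 23.0 FPKM in SNI, and 21.9, 22.2 and 19.3 FPKM in SNI + G15, and SNI and sham did not overlap. The summed FPKM of all plexins was 88.2 ± 2.95 (SD, n = 3) in sham and 91.7 ± 1.68 in SNI, and the libraries of these groups overlapped.

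The neuropilins, the binding partners of class 3 semaphorins, differed from each other in call. Nrp2 had 15.5, 14.4 and 15.2 FPKM in sham, 13.3, 13.3 and 13.8 FPKM in SNI, and 12.4, 11.9 and 11.2 FPKM in SNI + G15, in 3 separate ranges. It fell by 0.21 on the log2 scale (SE 0.0441, adjusted p = 0.00258). Nrp1 had 8.02, 7.41 and 7.78 FPKM in sham, 7.51, 7.74 and 8.20 FPKM in SNI, and 7.79, 7.28 and 6.86 FPKM in SNI + G15. All 3 groups overlapped, and the log2 fold change of -0.01 was not called (SE 0.0529, adjusted p = 0.859).

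The netrins were lower in SNI in 4 of 5 tested, with none higher. Ntn1, the classic secreted netrin, had 1.55, 2.22 and 1.96 FPKM in sham, 0.83, 1.30 and 0.89 FPKM in SNI, and 1.70, 1.58 and 0.97 FPKM in SNI + G15. Sham and SNI did not overlap, but the estimate rests on 31 to 79 reads per library, and the log2 fold change was -0.99 (SE 0.216, adjusted p = 0.0035). Ntng2, a membrane-anchored netrin-G that does not bind DCC, had 34.6, 29.5 and 39.1 FPKM in sham, 22.7, 25.2 and 26.1 FPKM in SNI, and 23.5, 23.6 and 23.6 FPKM in SNI + G15. All injured libraries were below all sham libraries, with -0.49 (SE 0.0916, adjusted p = 0.00133) in SNI. Its relative Ntng1 fell by 0.48 (SE 0.0544, adjusted p = 4.28e-05) and Ntn3 by 0.46 (SE 0.143, adjusted p = 0.0236), while Ntn4 had -0.23 (SE 0.117, adjusted p = 0.131).

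Both tested Unc5 receptors, which carry repulsion by netrins, were lower. Unc5b had 3.81, 3.78 and 3.95 FPKM in sham, 2.54, 2.91 and 3.19 FPKM in SNI, and 2.63, 3.50 and 2.41 FPKM in SNI + G15. Sham lay above both injured groups, and the log2 fold change of SNI over sham was -0.48 (SE 0.0637, adjusted p = 0.000138). Unc5a fell by 0.25 (SE 0.0732, adjusted p = 0.0184).

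None of the 3 Slits was called. Slit1 had 23.0, 20.3 and 23.1 FPKM in sham, 24.4, 23.5 and 24.2 FPKM in SNI, and 23.1, 22.9 and 19.0 FPKM in SNI + G15. The SNI libraries were the highest but close to sham, with a log2 fold change of 0.09 (SE 0.0524, adjusted p = 0.19). Its receptor Robo2 had 23.6, 22.1 and 22.8 FPKM in sham, 16.9, 17.9 and 17.6 FPKM in SNI, and 15.1, 14.3 and 12.2 FPKM in SNI + G15. The groups formed 3 separate ranges in falling order, and SNI over sham was -0.41 (SE 0.0387, adjusted p = 1.05e-05). Robo1 had a log2 fold change of 0.06 and was not called (SE 0.0821, adjusted p = 0.567).

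The ephrins were split, with 2 higher and 3 lower of 8 tested. Efnb3, a transmembrane ephrin, had 1.09, 1.22 and 1.18 FPKM in sham, 0.42, 0.34 and 0.40 FPKM in SNI, and 0.45, 0.40 and 0.36 FPKM in SNI + G15. It fell by 1.62 (SE 0.192, adjusted p = 5.82e-05), from 63 to 71 reads per library in sham to 20 to 24 in SNI. Efna3, held in the membrane by a lipid anchor as all ephrin-A proteins are, had 2.67, 2.37 and 2.26 FPKM in sham, 1.58, 1.28 and 1.40 FPKM in SNI, and 1.22, 1.31 and 1.36 FPKM in SNI + G15. The log2 fold change was -0.81 (SE 0.14, adjusted p = 0.000851), with no overlap between sham and the injured groups.

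Efna1 and Efnb1, the highest of their families, rose. Efna1 had 18.8, 18.4 and 18.8 FPKM in sham, 23.5, 23.6 and 24.1 FPKM in SNI, and 22.9, 24.6 and 25.1 FPKM in SNI + G15. Both injured groups lay above sham, and the log2 fold change in SNI was 0.32 (SE 0.0479, adjusted p = 0.000336). Efnb1 had 11.4, 11.1 and 11.5 FPKM in sham, 13.4, 12.3 and 13.4 FPKM in SNI, and 13.8, 14.5 and 11.7 FPKM in SNI + G15. It rose by 0.17 (SE 0.0525, adjusted p = 0.0221), a call that was lost when sham library 2, SNI library 1 or SNI library 3 was left out (0.15 to 0.16). Efnb2 fell by 0.35 (SE 0.119, adjusted p = 0.0323), and Efna2, Efna4 and Efna5 were not called.

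The Eph receptors rose in 4 cases and fell in 2 of 10 tested. Epha10, an Eph receptor without kinase activity, had 1.09, 1.02 and 1.04 FPKM in sham, 1.61, 1.53 and 1.75 FPKM in SNI, and 1.76, 1.43 and 1.40 FPKM in SNI + G15. Every injured library was above every sham library, and the log2 fold change in SNI was 0.66 (SE 0.0988, adjusted p = 0.00032). Epha5, the EphA receptor of highest mean level, had 3.18, 2.67 and 2.81 FPKM in sham, 3.57, 3.74 and 3.85 FPKM in SNI, and 3.49, 3.57 and 3.42 FPKM in SNI + G15. It rose by 0.29 (SE 0.0684, adjusted p = 0.00526), with the sham libraries below all injured ones.

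Of the EphB receptors, which bind the transmembrane ephrins, Ephb2 (0.47, SE 0.158) and Ephb3 (0.39, SE 0.0744) rose. Ephb6, a further receptor without kinase activity and the EphB of highest level, had 12.1, 11.6 and 12.9 FPKM in sham, 9.95, 10.8 and 10.8 FPKM in SNI, and 10.7, 10.8 and 10.3 FPKM in SNI + G15. All injured libraries were below sham, and it fell by 0.25 (SE 0.0564, adjusted p = 0.00484). Epha6 fell by 0.32 (SE 0.109, adjusted p = 0.0346). The EphB sum was 23.9 ± 1.01 FPKM (SD, n = 3) in sham and 23.5 ± 0.688 FPKM in SNI, and these sums overlapped.

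Of the 42 genes called in SNI against sham, 32 were called in the same direction under each of the 16 other settings tried, and 10 (Efnb1, Efnb2, Epha6, Ephb2, Ntn3, Plxna3, Plxnb1, Sema4c, Sema6d and Unc5a) lost the call when at least 1 library was left out. All 13 genes that differed by at least 0.5 were among the 32.

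For 55 of the 71 genes RefSeq (build GRCr8) gave a promoter window of 300 bases, from 250 before to 50 after the start of a transcript. The bases before the start are shown for Sema6a, the gene that rose most, and for Epha10, the only guidance gene whose window held an AP-1 motif, the letters bound by Fos and Jun proteins; capitals mark that motif.
Sema6a: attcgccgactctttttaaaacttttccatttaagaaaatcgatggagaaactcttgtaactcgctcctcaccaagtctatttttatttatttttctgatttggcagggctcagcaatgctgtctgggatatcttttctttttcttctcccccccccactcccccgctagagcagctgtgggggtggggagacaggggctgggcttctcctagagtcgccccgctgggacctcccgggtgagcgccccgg
Epha10: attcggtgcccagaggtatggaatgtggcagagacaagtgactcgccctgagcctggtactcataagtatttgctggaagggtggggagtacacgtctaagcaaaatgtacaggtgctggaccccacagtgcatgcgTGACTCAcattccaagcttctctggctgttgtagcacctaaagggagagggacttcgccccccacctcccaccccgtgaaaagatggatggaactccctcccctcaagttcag
The Sema6a stretch lies at chr18:42358541-42358790 on the minus strand and the Epha10 stretch at chr5:142424046-142424295 on the plus strand, both before the start of the transcript in that table and 52.0% and 54.4% G or C. The last bases of the Epha10 stretch lie inside the gene as RefSeq annotates it. The AP-1 motif of Epha10 begins 113 bases before the start.

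The AP-1 letters TGACTCA, read on both strands and so including TGAGTCA, stood in the window of 1 of the 12 higher guidance genes with a promoter (8.33%), in none of the 21 lower genes, and in 5.04% of the 27457 genes in the table. The CRE letters TGACGTCA, bound by CREB and ATF proteins and the same on both strands, stood in none of those 12 or 21. They stood in 1 of the 22 others, the uncalled receptor gene Epha2, and in 2.00% of all genes. The 22 others include genes below the level filter, which were not tested. Over the 55 guidance genes with a promoter, AP-1 letters stood in 1 (1.82%) and CRE letters in 1 (1.82%). With so few matches these shares are a description, and they cover these letters in these windows only. The median share of G or C was 63.5% in the windows of guidance genes and 51.7% in all windows, and its part in the matches was not tested.

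The genes that work with the guidance genes came from 5 lists of co-receptors, alternative ligands and signalling proteins. Of 120 such genes tested, 51 were higher and 25 lower in SNI than in sham. Over all genes tested, 23.3% were higher and 22.4% lower. The lists were chosen with earlier results of these data known. In the netrin list, 10 of 24 were higher and 8 lower. Flrt3, a membrane protein that binds Unc5 receptors, had 5.27, 5.11 and 5.05 FPKM in sham, 35.9, 37.2 and 36.7 FPKM in SNI, and 34.1, 34.6 and 31.1 FPKM in SNI + G15. The injured libraries were all far above sham, with a log2 fold change of 2.80 in SNI (SE 0.0477, adjusted p = 4.43e-11). Draxin, a secreted ligand of DCC, rose by 1.03 (SE 0.281, adjusted p = 0.0121), and Adora2b, an adenosine receptor linked to netrin signalling, fell by 0.74 (SE 0.112, adjusted p = 0.000335).

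In the semaphorin and plexin list, 11 of 31 genes were higher and 6 lower. Chl1, an adhesion molecule that acts with neuropilins, had 12.0, 10.5 and 10.6 FPKM in sham and 30.4, 31.1 and 31.1 FPKM in SNI, a log2 fold change of 1.46 (SE 0.053, adjusted p = 7.91e-09). Tyrobp (1.31, SE 0.0722) and the kinase Fes (1.24, SE 0.108) were the next largest. Tyrobp is an adaptor of myeloid cells, and Fes is known from the same cells. Macrophage markers were higher, as given above, and the part of these cells in the partner results was not tested. In the Slit and Robo list, 6 of 18 were higher and 2 lower, led by Gpc1 (0.66, SE 0.0348), a proteoglycan that binds Slit, Srgap2 (0.43, SE 0.0518), a GTPase-activating protein that binds Robo, and the kinase Abl2 (0.41, SE 0.0637).

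In the Eph and ephrin list, 11 of 25 were higher and 5 lower, among them Vav1 (1.25, SE 0.152), an exchange factor of blood cells, Chn2 (-0.55, SE 0.0662), which switches off Rac, and Itsn1 (0.50, SE 0.0602), an exchange factor for Cdc42.

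The second comparison asked how guidance genes differed when SNI rats received G15. In SNI + G15, 2 of the 60 genes were higher than in SNI and 5 were lower, and none of the 7 differed by 0.5 on the log2 scale. The higher calls were 3.33% of the guidance genes, where 7.98% of all genes tested were higher, and the lower calls 8.33%, where 7.25% were lower. A further 12 of the 60 had an unadjusted p below 0.05, which made 19 in all. Such values were common over all genes. Efna2, at an unadjusted p of 0.0467 in the edgeR test, was only at rank 4496 of the 14305 genes by p-value. The 19 are therefore no result about guidance genes. Of the 13 genes that differed by at least 0.5 between SNI and sham, only Sema7a was called here; for Sema6a the log2 fold change was -0.06 (SE 0.0678, adjusted p = 0.572).

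The lower genes were Ntng1, Robo2, Sema7a, Plxna4 and Efna5. Ntng1 had 6.16, 6.59 and 6.83 FPKM in SNI and 4.63, 4.58 and 5.02 FPKM in SNI + G15, against 8.98, 8.62 and 8.99 FPKM in sham. It stepped down from sham to SNI to SNI + G15 without overlap, and SNI + G15 over SNI was -0.45 (SE 0.064, adjusted p = 0.00257). Robo2 and Sema7a, whose values are given above, stepped down in the same order, with -0.32 (SE 0.07, adjusted p = 0.0178) and -0.28 (SE 0.0495, adjusted p = 0.00733). Plxna4, a receptor that binds Sema6a, had 5.62, 4.90 and 5.37 FPKM in sham, 6.22, 6.25 and 6.40 FPKM in SNI, and 5.45, 5.28 and 4.87 FPKM in SNI + G15. It was higher in SNI than in both other groups, with -0.26 (SE 0.0481, adjusted p = 0.00859) in SNI + G15 against SNI and -0.07 (SE 0.0659, adjusted p = 0.447) in SNI + G15 against sham. Efna5, an ephrin-A ligand, had 13.8, 10.6 and 13.7 FPKM in sham, 11.9, 13.9 and 13.4 FPKM in SNI, and 10.1, 10.8 and 11.1 FPKM in SNI + G15. The sham libraries overlapped both other groups, and SNI + G15 over SNI was -0.23 (SE 0.0598, adjusted p = 0.0369).

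The higher genes were Sema3g and Ephb4, both known from vessels. Sema3g, a secreted semaphorin, had 19.6, 18.4 and 19.7 FPKM in sham, 15.5, 16.5 and 16.0 FPKM in SNI, and 18.0, 18.8 and 19.7 FPKM in SNI + G15. SNI was the low group and the other two overlapped, with 0.25 (SE 0.0526, adjusted p = 0.0158) in SNI + G15 against SNI and -0.07 (SE 0.0603, adjusted p = 0.399) in SNI + G15 against sham. Ephb4 had 3.20, 3.12 and 3.29 FPKM in sham, 3.45, 3.35 and 3.14 FPKM in SNI, and 3.72, 4.21 and 3.86 FPKM in SNI + G15. The SNI + G15 libraries were the highest of the 9, and the log2 fold change over SNI was 0.26 (SE 0.0722, adjusted p = 0.0424). In the same comparison 3 of 10 endothelial markers were higher and 1 lower, with summed levels of 81.2 to 83.3 FPKM in SNI and 96.8 to 106 FPKM in SNI + G15, and 8 of 10 fibroblast markers were higher, with sums of 474 to 476 and 634 to 658 FPKM. Of 7 pericyte and smooth muscle markers 3 were higher and none lower (54.4 to 59.8 and 72.0 to 76.2 FPKM), and of 12 sensory neuron markers 1 was higher and 3 were lower (12200 to 12550 and 12340 to 12910 FPKM). Of 10 Schwann cell markers 5 were higher and none lower (3155 to 3215 and 3376 to 3529 FPKM), and all 6 erythroid markers were lower (326 to 334 and 194 to 228 FPKM). Of 7 satellite glia markers 2 were higher and 2 lower, and of 6 T cell markers 2 were higher and 2 lower. Of 4 mesothelial and arachnoid barrier markers 2 were higher and 1 lower. Their part in these results was not tested.

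**Figure D5:**
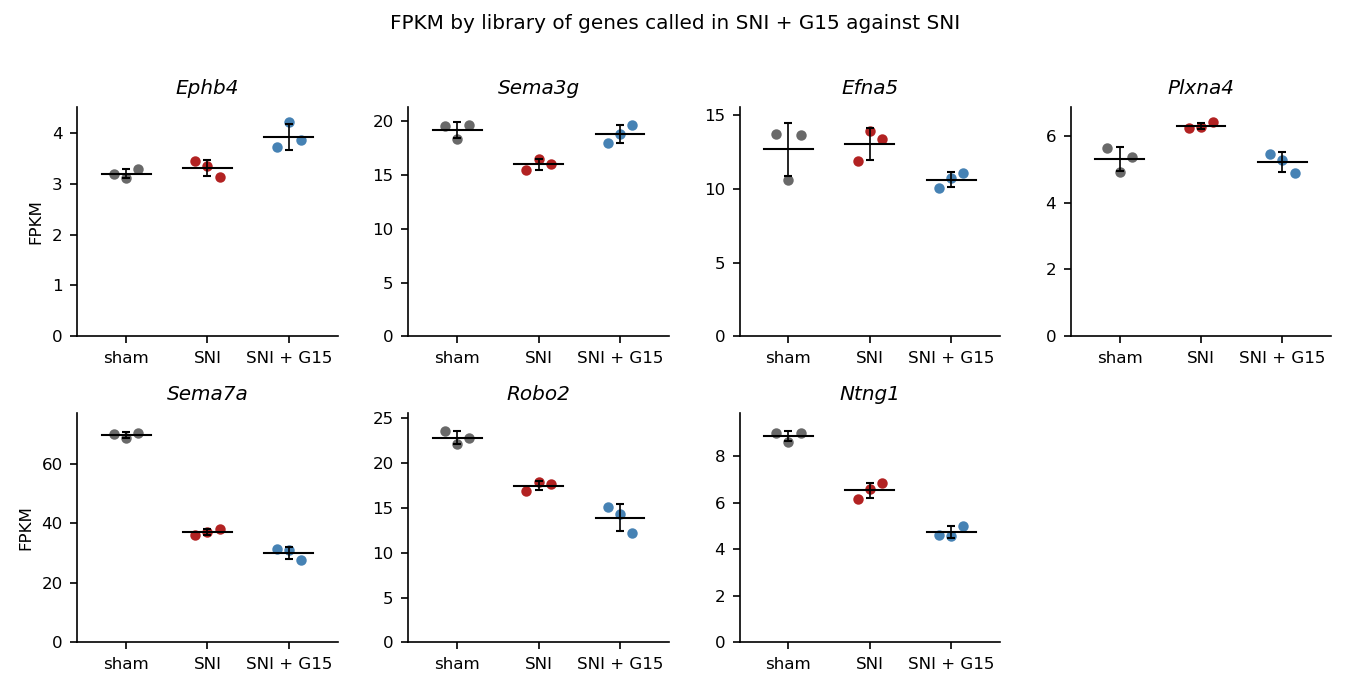
FPKM (y axis, from 0) in each library of the 7 guidance genes called in SNI + G15 against SNI; dots are libraries, the line is the mean and the bar its SD (n = 3). SNI and SNI + G15 do not overlap in any panel, for genes that were picked from these same libraries. Sema3g and Plxna4 lie within or near the sham range in SNI + G15, while Sema7a, Robo2 and Ntng1 are lowest there.

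Most calls of this comparison depended on a library or a setting. Ntng1 and Sema7a were called in each of the 16 other settings. Sema3g was not called without SNI library 1 or SNI library 3, Robo2 not without SNI library 2 or SNI library 3, and Efna5 and Ephb4 each not in 5 of the 6 fits that left out a library. Leaving out SNI library 1 or 3 left 0 higher genes, leaving out SNI library 2 or SNI + G15 library 2 left 1, and leaving out SNI library 2 or 3 left 3 lower genes.

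The differences also moved with gene length in all genes tested. With genes in 5 equal groups by effective length, the median log2 fold change of SNI + G15 over SNI ran from 0.155 in the shortest group through 0.061, 0.0111 and -0.0334 to -0.106 in the longest. Guidance genes are long, with 31 of the 60 in the longest group and 50 in the longest 2. The median over the 60 was -0.0724, and over the 31 in the longest group it was -0.095. SNI + G15 library 3 had the lowest FPKM of its group for 45 of the 60 (75.0%), as against 43.6% over the whole test. Without it the median over the 60 was -0.0263, 2 genes were higher and 5 lower, and 6 of the 7 calls were kept. With an offset for the length trend in each library, chosen after the data were seen, the median was 0.013, 4 genes were higher and 4 lower, and Plxna4 was not called. With that offset the other 6 calls passed, at -0.26 for Sema7a, -0.21 for Efna5, -0.35 for Ntng1, 0.29 for Sema3g and 0.33 for Ephb4, and at -0.19 for Robo2, whose value was -0.32 without it. Plxnb3 (0.24, adjusted p = 0.0079) and Sema6c (0.22, adjusted p = 0.0195) were also called higher with the offset, and had adjusted p = 0.0971 and adjusted p = 0.0508 without it.

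Of the 120 partner and effector genes, 10 were higher and 13 lower in SNI + G15 than in SNI. Over all genes tested, 7.98% were higher and 7.25% lower. The semaphorin and plexin list held 5 higher and 7 lower of 31, among them Trem2 (0.87, SE 0.121), a receptor of myeloid cells that signals through Tyrobp, Dpysl4 (-0.41, SE 0.0453), a collapsin response mediator protein, and Rnd1 (0.33, SE 0.0715), a GTPase that binds plexins. Of 10 macrophage markers 2 were higher and none lower, and their part was not tested. In the Slit and Robo list Abl2 (-0.38, SE 0.0693) and Srgap3 (-0.31, SE 0.0664) were lower of 18, in the netrin list 3 of 24 were lower, Maged1 (-0.17, SE 0.0365) and Dapk1 (-0.16, SE 0.044) among them, and in the Eph and ephrin list Rasa1 (-0.20, SE 0.0556) was lower of 25, with none higher in these 3 lists. The 23 calls became 6 when SNI library 2 or SNI library 3 was left out and 12 without SNI library 1.

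The third comparison set SNI + G15 against sham, and it shares libraries with both others. In it 13 of the 60 genes were higher and 30 lower, where 21.4% and 21.9% of all genes tested were called in those directions. The median log2 fold change was -0.241 over the 60 genes and -0.00369 over all genes. By gene length, the median over all genes ran from 0.116 in the shortest of the 5 groups to -0.0787 in the longest. Over the 60 guidance genes the median was -0.194 with the length offset and -0.223 without SNI + G15 library 3. Of the markers, 8 of 12 of sensory neurons were lower and 2 higher, with sums of 13860 to 14250 FPKM in sham and 12340 to 12910 FPKM in SNI + G15, and 6 of 10 of Schwann cells were lower and 2 higher (5512 to 5622 and 3376 to 3529 FPKM). All 10 macrophage markers were higher (179 to 197 and 414 to 452 FPKM), as were 5 of 6 erythroid markers (97.3 to 101 and 194 to 228 FPKM). Of 10 fibroblast markers 6 were higher and 3 lower, of 10 endothelial markers 5 were higher and 1 lower, and of 7 pericyte and smooth muscle markers 4 were higher and none lower. Of 7 satellite glia markers 3 were higher and 2 lower, and of 6 T cell markers 2 were higher and none lower. Of 4 mesothelial and arachnoid barrier markers 1 was higher and 1 lower. Their part in the values below was not tested. Sema6a (2.47, SE 0.0791), Sema3c (0.78, SE 0.0561) and Sema4f (0.60, SE 0.0602) were higher, and Efnb3 (-1.57, SE 0.189), Sema7a (-1.23, SE 0.0542) and Sema5b (-1.18, SE 0.164) were lower by the most. Ntng1 fell by 0.95 (SE 0.0676, adjusted p = 3.23e-06) and Robo2 by 0.76 (SE 0.0724, adjusted p = 2.37e-05). Ntn1 was not called here (-0.43, SE 0.208, adjusted p = 0.126), with its SNI + G15 libraries between 0.97 and 1.70 FPKM overlapping sham, and its difference from SNI was not called either (0.59, SE 0.252, adjusted p = 0.143). Of the 43 calls, 34 were kept in each of the 16 other settings, and Efna5, Efnb2, Epha5, Ephb3, Ephb4, Ntn4, Plxna1, Sema3d and Slit3 lost theirs in at least 1 fit without a library.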

How the data were processed

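The authors sequenced DRG RNA as paired reads of 150 bp and deposited FPKM values per gene and transcript, and estimated counts per gene that need not be whole. The aligner is not given in the sources used here, and the submitters' processing notes name the mouse builds GRCm38 and mm10 although the identifiers are rat. Columns named Control were taken as sham. The 27 per-sample columns holding other measures were not used. No 2 libraries were identical. For genes that reached an FPKM of 1 in any sample, rounded counts of the 2 groups compared were scaled by TMM and fitted in R 4.3.3 by the quasi-likelihood test of edgeR 4.0.16. Settings tried beside it were the Wald test of DESeq2 1.42.0, limma 3.58.1 on log2(FPKM + 1) and log2(FPKM + 0.1), RLE scaling, no level filter, filterByExpr, a single fit of all groups, a replicate block, each library left out, and, added after the data were seen, a length offset with a lowess span of 0.3. The test was checked on simulated counts. Replicate numbers did not pair the libraries (correlations of same-numbered deviations between -0.125 and 0.0923 in 9 pairs). Genes given in every library were those called that differed by 0.5 or more on the log2 scale, the highest of each family, Nrp1, Nrp2 and Dcc; other called genes are named with fold changes, and of each partner list the 3 of largest change; some items that this rule selects, 1 list among them, are not reported here. Members and lists were chosen with earlier results of these data known. Promoters came from RefSeq (GRCr8).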

Additional observations from a re-analysis of the deposited data

How the results depend on the processing

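Counts of guidance genes called against sham, in SNI and in SNI + G15, stayed within 1.5 times their value under all 16 alternatives. In SNI + G15 against SNI, the higher genes numbered 1 with DESeq2, without the FPKM filter, with limma at either pseudocount and with the replicate block, and 4 with the length correction. The lower genes numbered 3 with the length correction and replicate block. Leaving out a library gave 0 to 3 higher and 3 to 6 lower genes. Partner genes called there numbered 15 with limma at either pseudocount and 12 with the replicate block, and 6 to 28 with a library left out. Replicate numbers did not pair the libraries; with the block, 14 genes were higher and 27 lower in SNI against sham.

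Some uncalled differences changed sign. Against sham, Nrp1 in SNI had 0.013 and 0.0145 with limma and -0.0506 to 0.0138 with a library left out, and Slit1 in SNI + G15 had 0.00946 with the length correction, 0.00833 with the block added and -0.124 to 0.0265 with a library left out. In SNI + G15 against SNI, limma gave -0.000279 and -0.00146 for Sema4g and -0.0194 and -0.0279 for Unc5b. There the length correction, alone and with the replicate block, gave -0.0368 and -0.0372 for Efna1, 0.0344 and 0.0351 for Epha5, 0.0173 and 0.0176 for Nrp1, 0.0502 and 0.0499 for Plxnd1, 0.00658 and 0.0065 for Sema3c, 0.0619 and 0.0615 for Sema5a, and 0.0567 and 0.0561 for Sema6a, and alone 9.8e-05 for Epha10. Leaving out a library gave -0.00934 to 0.0449 for Ephb6, -0.00593 to 0.145 for Efnb3, -0.08 to 0.0912 for Sema4g, -0.127 to 0.0585 for Sema4a, -0.0132 to 0.128 for Efnb1, -0.098 to 0.121 for Unc5b and -0.103 to 0.0135 for Sema6a. The causes of these sign changes were not tested. With 3 libraries a group and few reads, differences of low genes such as Ntn1, Efnb3 and Dcc have larger standard errors than those of high genes such as Sema3b and Sema7a.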
